A study of Mus musculus with 6 samples.

Results

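Pericytes and vascular smooth muscle cells, together called mural cells, wrap the endothelial tubes of blood vessels. Transcripts of 10 genes by which these cells are commonly recognised were followed in CD31-sorted mammary cells, namely Acta2, Tagln, Myh11, Myl9, Cnn1, Rgs5, Des, Kcnj8, Abcc9 and Notch3. They were matched by symbol to probe sets annotated with a single gene, which gave 20 probe sets of the 45037 tested and 10 genes of the 18193 represented. The brightest probe set over the 6 arrays stands for a gene, and its others are given beside it.

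The samples came from mammary glands of FVB/N mice aged 9 weeks that expressed the PyMT oncogene in the epithelium, and the question was how Ets2 in fibroblasts affects the neighbouring endothelium. In 3 samples Ets2 had been deleted in fibroblasts (genotype PyMT;Fsp-cre;Ets2db/loxP, below "deleted"), and in 3 it was present (genotype PyMT;Ets2db/loxP, below "control"). Ets2db is a germline knockout aimed at the DNA-binding domain, so all cells of both groups carried at most 1 intact copy of Ets2. Fsp-cre removed that copy where the promoter of fibroblast specific protein 1 was active. The labels of the control samples conflict. Their source field declares the oncogene absent, but their titles and genotypes name PyMT. The genotype was followed here. RNA of each sample was read on 1 Affymetrix mouse array, and all values below are log2 signals from RMA, the Robust Multichip Average. A brighter probe set of one gene does not mean more transcript than a dimmer one of another gene.

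Mural cells hold vessels together and set their width. Smooth muscle cells contract through a dedicated set of actin, myosin and actin-binding proteins, much of it under the transcription factor SRF and its partner myocardin, which act through a DNA element called the CArG box. Pericytes of capillaries carry less of this contractile machinery, and are recognised by signaling proteins and channels such as Rgs5 and the potassium channel of Kcnj8 and Abcc9. Endothelial Notch ligands act on Notch3 in mural cells, and mural cells themselves do not make CD31, the protein on which these samples were sorted. Several contractile genes are shared with the myoepithelial cells of mammary ducts and with myofibroblasts.

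Promoter sequence from RefSeq (GRCm38.p6, 250 bases before to 50 bases after the start given there) was held for 8 of the 10 genes, with no entry used here for Tagln and Myh11. The CArG box reads alike on both strands. It was found in 1 of the 8 promoters, that of Myl9, against 1.63% of 32851 promoters of the same length. A CArG box with 1 C or G among its middle bases was found in 2 of the 8, those of Acta2 and Myl9, against 8.5% of all promoters. The promoters of Acta2 and Myl9 are shown because they belong to contractile genes and hold such elements, and that of Rgs5 as 1 of the 6 that hold neither. Neither was found in the searched bases of the contractile gene Cnn1, the desmin gene Des, Kcnj8, Abcc9 or Notch3. Sequence outside these bases was not searched. Capitals mark the CArG box and its forms with 1 base off, which begin 84 and 34 bases before the start of Acta2 and 161 and 99 bases before that of Myl9. The starts are those of the promoter sequences. For Acta2 and Myl9 they differ from the ends of the gene spans given below.
Acta2 (chr19:34255324-34255623, minus strand): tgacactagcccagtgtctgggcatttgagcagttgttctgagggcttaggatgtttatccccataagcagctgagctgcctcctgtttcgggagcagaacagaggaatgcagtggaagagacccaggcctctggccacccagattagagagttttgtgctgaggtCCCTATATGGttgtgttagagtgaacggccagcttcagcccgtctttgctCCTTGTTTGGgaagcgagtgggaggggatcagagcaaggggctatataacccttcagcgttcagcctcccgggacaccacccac
Myl9 (chr2:156775214-156775513, plus strand): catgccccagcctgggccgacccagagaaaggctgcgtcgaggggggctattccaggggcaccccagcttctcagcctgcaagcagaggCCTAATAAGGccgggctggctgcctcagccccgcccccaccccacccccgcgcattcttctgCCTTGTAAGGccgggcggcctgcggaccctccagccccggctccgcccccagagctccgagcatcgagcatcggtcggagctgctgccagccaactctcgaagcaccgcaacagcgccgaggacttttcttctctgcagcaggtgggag
Rgs5 (chr1:169655251-169655550, plus strand): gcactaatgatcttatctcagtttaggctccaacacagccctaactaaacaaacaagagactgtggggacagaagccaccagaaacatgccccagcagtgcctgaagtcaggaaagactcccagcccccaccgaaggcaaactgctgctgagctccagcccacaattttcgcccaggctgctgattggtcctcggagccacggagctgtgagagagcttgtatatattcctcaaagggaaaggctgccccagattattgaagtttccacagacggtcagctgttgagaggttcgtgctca

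The mural transcripts were measured in the sorted cells of every sample. By their brightest probe set, 9 of the 10 genes lay above the median signal of all probe sets, 7.03, and Cnn1 lay below it, where a value holds mostly background. Of the 20 probe sets, 6 lay below that median. The samples also held bright transcripts of other cells, so the sorted material was not endothelial alone. The endothelial markers Pecam1, which encodes CD31, Cdh5, Kdr and Tek read 11.69, 11.09, 12.20 and 13.18 on average in deleted samples and 11.30, 10.97, 12.09 and 13.03 in control samples. All 7 luminal epithelial and all 8 myoepithelial markers lay above the median as well, and all 10 skeletal muscle markers lay below it. Ets2, of which all cells carried the germline knockout allele while Fsp-cre was aimed at fibroblasts, read 14.43, 14.30 and 14.50 in deleted samples against 14.48, 14.41 and 14.26 in control samples, so these arrays do not check its deletion in fibroblasts. In bulk samples fewer mural cells and less RNA per mural cell cannot be told apart.

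Of the 10 genes, 9 had a higher mean in deleted samples and 1 a lower one, with a median difference (deleted minus control, log2) of 0.24. Over all 18193 genes, 50.9% had a difference above 0 and the median was 0.00. After adjustment none of the 10 passed limma's threshold of 0.05, which 0.0% of all genes and 0.0% of all probe sets did (smallest adjusted p = 0.9999). Only Tagln had an unadjusted p under 0.05, against 1.79% of all genes and 2.07% of all probe sets (934 of 45037). None differed by more than 2-fold with an unadjusted p under 0.05, as 0.129% of all probe sets did. Tagln was also the only member whose groups did not overlap, which 3.36% of all genes did in that direction. The half-width of the 95% interval had a median of 0.56 over the members and 0.43 over all genes, so differences of the sizes seen here were not resolved with 3 arrays per group.

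**Figure D1:**
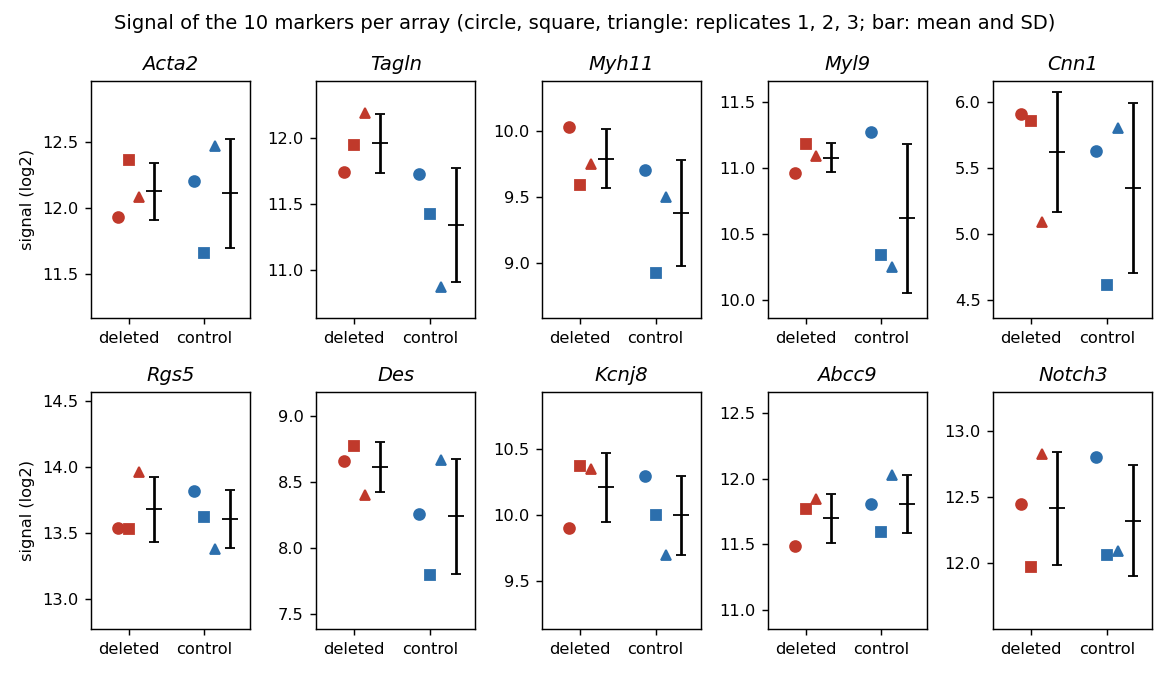
RMA signal (log2, vertical axis, each panel spanning the same range) of the 10 genes on each array, deleted samples in red on the left and control samples in blue on the right, with black bars at the group mean ± SD (n = 3 each). Only for Tagln do all deleted arrays, 11.75 to 12.19, lie above all control arrays, 10.87 to 11.73.

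The count of 9 higher genes depended on single arrays. Without control replicate 2 it became 6 of 10 and the median difference 0.11, and without control replicate 1 the count was 9 and the median 0.37. Without control replicate 3 it was 8 of 10, with a median of 0.23. With 1 deleted array left out it was 9, 8 and 7 of 10 for replicates 1, 2 and 3, with medians of 0.22, 0.22 and 0.29.

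The contractile and cytoskeletal genes ranged in difference from 0.01, for Acta2, to 0.62, for Tagln. Tagln, on chromosome 9 from 45929628 to 45936058 (GRCm38.p6), encodes SM22-alpha, an actin-binding protein of smooth muscle, and has 1 probe set (1423505_at). It read 11.75, 11.95 and 12.19 in deleted samples against 11.73, 11.42 and 10.87 in control samples. The lowest deleted array was thus barely above the highest control array, and control replicate 3 was the lowest of all. The mean was 11.96 ± 0.22 in deleted and 11.34 ± 0.43 in control samples (SD, n = 3 each). They differed by 0.62 (SE 0.24, 95% interval 0.05 to 1.19), or 1.54-fold (limma, unadjusted p = 0.0378, adjusted p = 0.9999). Without control replicate 3 the difference was 0.39 (limma, unadjusted p = 0.0958). It also lost an unadjusted p under 0.05 without control replicate 2 (0.66), deleted replicate 2 (0.63) or deleted replicate 3 (0.50), and kept it without control replicate 1 (0.81) or deleted replicate 1 (0.73).

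Control replicate 3 was also the array with the largest gap between 3' and 5' control probe sets, a sign of shortened RNA. For Gapdh the gap was 0.78 to 1.01 in deleted arrays against 0.75, 0.88 and 1.31 in control replicates 1, 2 and 3. For beta-actin it was 1.03 to 1.29 in deleted arrays against 0.99, 1.09 and 1.67 in control replicates 1, 2 and 3. Whether this bears on the low Tagln value of that array was not tested.

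Myl9, on chromosome 2 from 156775408 to 156781657, encodes the regulatory light chain of smooth muscle myosin, and its promoter holds the CArG box shown above. Its only probe set (1452670_at) read 10.96, 11.18 and 11.09 in deleted samples against 11.27, 10.34 and 10.25 in control samples. The deleted arrays lay close together, while control replicate 1 was above all of them and the other control arrays were below. The difference was 0.46 (SE 0.28, 95% interval -0.19 to 1.11). Without control replicate 1 it was 0.79 (limma, unadjusted p = 0.00277, adjusted p = 0.988), and without control replicate 3 it was 0.28.

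Myh11 encodes the heavy chain of smooth muscle myosin, the motor of contraction, and lies on chromosome 16 from 14194527 to 14292188. Its brighter probe set (1448962_at) read 10.03, 9.59 and 9.75 in deleted samples against 9.70, 8.93 and 9.50 in control samples. Control replicate 2 was the lowest array, and 2 deleted arrays lay above every control array. The difference was 0.41 (SE 0.23, 95% interval -0.13 to 0.96), and 0.19 without control replicate 2. The dimmer probe set differed by 0.26, with control replicate 2 again the lowest at 5.94, against 6.50 and 6.75 in the other control arrays and 6.55 to 6.75 in deleted arrays.

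Des encodes desmin, the intermediate filament of muscle cells, which pericytes share, and lies on chromosome 1 from 75360292 to 75368579. Its brighter probe set (1426731_at) read 8.66, 8.77 and 8.41 in deleted samples against 8.26, 7.80 and 8.67 in control samples. Control replicate 2 was the lowest array, and control replicate 3 lay among the deleted ones. The difference was 0.37 (SE 0.24, 95% interval -0.19 to 0.93), 0.15 without control replicate 2, and 0.59 without control replicate 3 (limma, unadjusted p = 0.0289, adjusted p = 0.9999). The other Des probe set, at 3.57 to 3.96 on all arrays, was at background and differed by -0.02.

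Cnn1 encodes calponin 1, which binds actin and slows the myosin motor, and lies on chromosome 9 from 22099221 to 22109221. Its probe set (1417917_at) read 5.91, 5.85 and 5.09 in deleted samples against 5.62, 4.61 and 5.81 in control samples. These values lay below the median of the arrays, with control replicate 2 lowest. The difference was 0.27 (SE 0.36, 95% interval -0.58 to 1.12), and -0.10 without control replicate 2.

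Acta2, the alpha actin of smooth muscle and the gene most often used to stain mural cells, did not differ beyond the error between the groups. It lies on chromosome 19 from 34240336 to 34255585. Its brightest probe set (1416454_s_at) read 11.93, 12.36 and 12.08 in deleted samples against 12.20, 11.66 and 12.47 in control samples. The control arrays held both the lowest and the highest value. The difference was 0.01 (SE 0.24, 95% interval -0.54 to 0.57), -0.21 without control replicate 2 and 0.19 without control replicate 3. Its other 2 probe sets, at or below 6.07 on every array, differed by 0.17 and -0.19.

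The 4 signaling and channel genes had a median difference of 0.08, and the 6 contractile and cytoskeletal genes one of 0.39. This division follows the genes' roles, and the gap between the medians was not tested. Rgs5, a regulator of G-protein signaling and a marker of pericytes, lies on chromosome 1 from 169655501 to 169695813 and has 4 probe sets. The brightest (1420941_at) read 13.54, 13.53 and 13.96 in deleted samples against 13.82, 13.62 and 13.38 in control samples. Deleted replicate 3 was the highest and control replicate 3 the lowest array, with the others between. The difference was 0.07 (SE 0.19, 95% interval -0.37 to 0.51), and the other 3 probe sets differed by 0.13, 0.17 and 0.01. Without deleted replicate 3 the brightest differed by -0.07 and without control replicate 3 by -0.04.

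Kcnj8 and Abcc9 encode the pore and the regulatory subunit of an ATP-sensitive potassium channel that relaxes mural cells. They are neighbours on chromosome 6, Kcnj8 from 142564837 to 142571614 and Abcc9 from 142587862 to 142702766, with no gene annotated in the 16247 bases between. Kcnj8 (1418142_at) read 9.90, 10.37 and 10.35 in deleted samples against 10.30, 10.002 and 9.70 in control samples. Control replicate 3 was lowest, deleted replicate 1 came next, and the groups overlapped. The difference was 0.21 (SE 0.21, 95% interval -0.29 to 0.71), and 0.06 without control replicate 3.

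The brightest Abcc9 probe set (1420408_a_at) read 11.49, 11.77 and 11.84 in deleted samples against 11.80, 11.59 and 12.03 in control samples. Control replicate 3 was here the highest array, opposite to Kcnj8. The difference was -0.11 (SE 0.17, 95% interval -0.52 to 0.30), the only one below 0 among the members. The other 2 probe sets of Abcc9 differed by 0.14 and 0.29, and the last of these read 11.04, 10.27 and 11.07 in deleted samples against 10.80, 10.55 and 10.16 in control samples, with control replicate 3 the lowest. The probe sets of Abcc9 thus placed the same array at opposite ends, and no direction can be given for this gene. The channel subunits Kcnj11 and Abcc8, which pair in other tissues, differed by -0.02 and 0.01, Abcc8 at a mean signal of 6.47 below the array median.

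Notch3, the Notch receptor of mural cells, lies on chromosome 17 from 32120820 to 32166896. Its brighter probe set (1421965_s_at) read 12.45, 11.97 and 12.83 in deleted samples against 12.81, 12.06 and 12.09 in control samples. Each group had 1 array near the top and at least 1 near the bottom. The difference was 0.10 (SE 0.29, 95% interval -0.58 to 0.77) and that of the other probe set 0.00. With 1 array left out it lay between -0.11, without deleted replicate 3, and 0.34, without control replicate 1. Among the other Notch receptors, Notch1 differed by -0.13, Notch2 by -0.08 and Notch4 by -0.15.

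**Figure D2:**
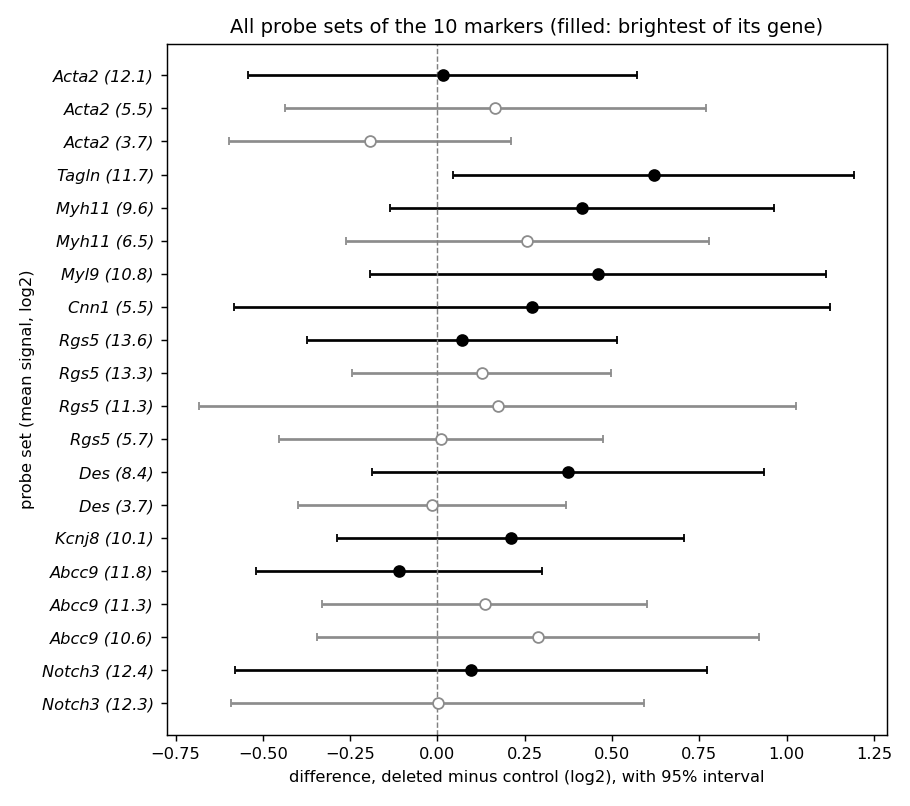
Difference between deleted and control samples (log2, horizontal axis) of all 20 probe sets with 95% intervals, the brightest of each gene filled and the mean signal in brackets. Every interval but that of Tagln, 0.05 to 1.19, includes 0, and 17 of the 20 differences are above 0.

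The 10 genes did not vary as 1 block across the arrays. Relative to each gene's mean over the 6 arrays, control replicate 2 was lowest for 4 of the 6 contractile and cytoskeletal genes (Acta2, Myh11, Cnn1 and Des), and their mean deviation there was -0.56. In that array the 4 signaling and channel genes averaged -0.15. Control replicate 3 was lowest for 4 genes, Tagln, Myl9, Rgs5 and Kcnj8, and highest for Acta2 and Abcc9. Averaged over all 10 genes the deviation was 0.06, 0.14 and 0.16 in deleted replicates 1, 2 and 3, against 0.15, -0.40 and -0.12 in control replicates 1, 2 and 3. Control replicate 1 therefore lay among the deleted arrays, and only the other 2 control arrays averaged below 0.

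**Figure D3:**
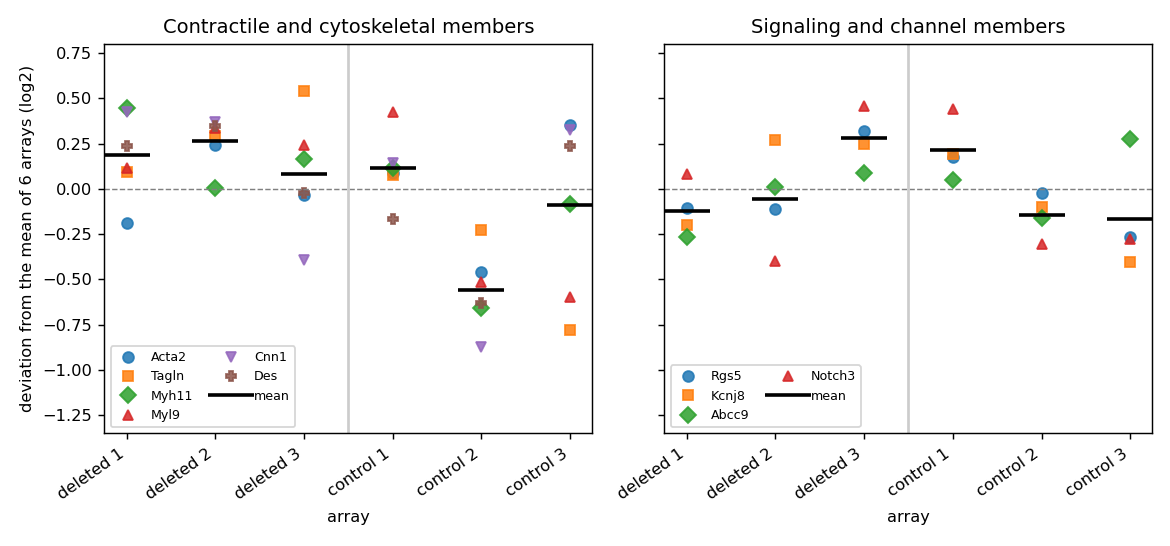
Deviation of each gene from its mean over the 6 arrays (log2, vertical axis) by array, for the 6 contractile and cytoskeletal genes (left) and the 4 signaling and channel genes (right), with black bars for their mean. All 6 contractile and cytoskeletal genes are below 0 in control replicate 2, at -0.56 on average, where the other 4 average -0.15.

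Of 24 other pericyte genes represented on the arrays (of 26 listed), 15 were higher and 9 lower with a median of 0.05, and 0 had an unadjusted p under 0.05 in limma's test in either direction. The largest differences were those of Anpep, an aminopeptidase, at -0.59, Rgs4, a relative of Rgs5, at 0.52, Gpc3, a glypican, at 0.41 and Ebf1, a transcription factor of pericytes, at 0.27. Rgs4 read 11.07, 10.96 and 11.24 in deleted samples against 11.17, 10.32 and 10.21 in control samples, so the same 2 control arrays were low as for Myl9. Pdgfrb, the PDGF receptor that recruits pericytes, was singled out after its values were seen and differed by 0.22 (SE 0.27).

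Of 34 other contractile smooth muscle genes represented (of 36 listed), 21 were higher and 13 lower, with a median of 0.08. Only Sncg, a synuclein found in smooth muscle, had an unadjusted p under 0.05 in limma's test, at a difference of 0.68, where 0.72% of all genes were higher by this rule. It read 9.56, 9.40 and 9.75 in deleted samples against 9.44, 8.90 and 8.34 in control samples, and the groups overlapped in 1 array. Synpo2, an actin-binding protein, differed by 0.64, and Pcp4l1 by 0.57. Actg2, the smooth muscle gamma actin, differed by -0.51. Of the other actins, Acta1, Actc1, Actb and Actg1 differed by 0.17, 0.02, 0.04 and 0.08. Actg2, Acta1 and Actc1 had mean signals of 5.57, 6.07 and 4.05, below the array median, where values hold mostly background.

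The regulators of the contractile genes had differences of both signs. Of 18 genes listed, 11 were higher and 7 lower, with a median of 0.04 and 0 at an unadjusted p under 0.05 in limma's test. The largest differences were those of Hey2, a target of Notch, at 0.45, Gata6 at 0.44, Tcf21 at -0.26 and Klf4, which opposes the contractile program, at 0.25. Hey2 read 8.37, 8.45 and 9.53 in deleted samples against 8.23, 8.34 and 8.44 in control samples, so only deleted replicate 3 stood apart. Gata6 and Tcf21 had mean signals of 5.62 and 3.38, also below the array median. Srf and Myocd, which encodes myocardin, were singled out after their values were seen and differed by -0.19 and -0.05. Among the other regulators of G-protein signaling, Rgs10, Rgs16 and Rgs12 differed by 0.45, 0.42 and -0.31. Of the intermediate filament genes, Nes, which encodes nestin, differed by 0.41, Synm by 0.26 and Vim by 0.06. These are values of the brightest probe sets. The study listed Synm among its called genes by a dimmer probe set, higher in deleted samples by more than 2-fold.

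Most markers of other cells that use some of these genes had differences below 0. Myoepithelial cells express Acta2, Myh11, Cnn1, Tagln and Myl9, and 7 of their 8 markers were lower in deleted samples, with a median of -0.18. These were Il17b at -0.75, Krt5 at -0.38, Krt17 at -0.27, Trim29 at -0.20, Trp63 at -0.17, Krt14 at -0.13 and Jag2 at -0.05, while the oxytocin receptor gene Oxtr differed by 0.14. Il17b and Krt5 read 9.36 and 11.36 in control replicate 3, while their other control arrays lay within the range of the deleted ones. Only Trim29 did not overlap between the groups, as 2.7% of all genes did in that direction. The mean level of the list ranged from 9.45 to 9.63 in deleted arrays against 9.57 to 10.10 in control arrays, with control replicate 3 highest. None was near the lower end of the array.

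Fibroblast markers, which include genes that myofibroblasts share, were lower in deleted samples for 11 of 12 genes, with a median of -0.53. Of these, 5 had an unadjusted p under 0.05 in limma's test, against 1.07% of all genes in that direction, and 5 did not overlap between the groups, against 2.7%. Col14a1 and Dpep1, both with such a p, are among the genes that the study called from these same arrays. The counts are therefore not independent of the study's result. The mean level of the list ranged from 9.04 to 9.16 in deleted arrays against 9.46 to 9.87 in control arrays. Pdgfra differed by -0.59 and Col1a1 by -0.38. In the same samples the 6 contractile and cytoskeletal genes differed by 0.01, for Acta2, to 0.62, for Tagln. All 8 macrophage markers were lower as well, with a median of -0.80 and a mean level of 8.74 to 9.41 in deleted arrays against 9.57 to 10.20 in control arrays. In limma's test 5 of them had an unadjusted p under 0.05, against 1.07% of all genes, and 5 did not overlap between the groups, against 2.7%. C1qb, with such a p, is also among the genes that the study called. Ptprc, the leukocyte gene of CD45, differed by -0.43. The part of these cells in the differences of the mural genes was not tested.

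Of the 10 skeletal muscle markers, whose fibres also express Des, 7 were higher and 3 lower, with a median of 0.08. Their mean level was 5.86 to 6.04 in deleted arrays against 5.77 to 5.90 in control arrays, all below the median signal. Of 7 luminal epithelial markers, 6 were lower with a median of -0.14, and the list averaged 12.44 to 12.95 in deleted arrays against 12.73 to 12.92 in control arrays. Of 10 endothelial markers, 9 were higher with a median of 0.15, and they averaged 12.21 to 12.63 in deleted arrays against 12.05 to 12.48 in control arrays. Control replicate 3 had the lowest endothelial average, 12.05, and was also lowest for Tagln, Myl9, Rgs5 and Kcnj8. Whether a share of endothelial RNA moves with these genes was not tested.

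**Figure D4:**
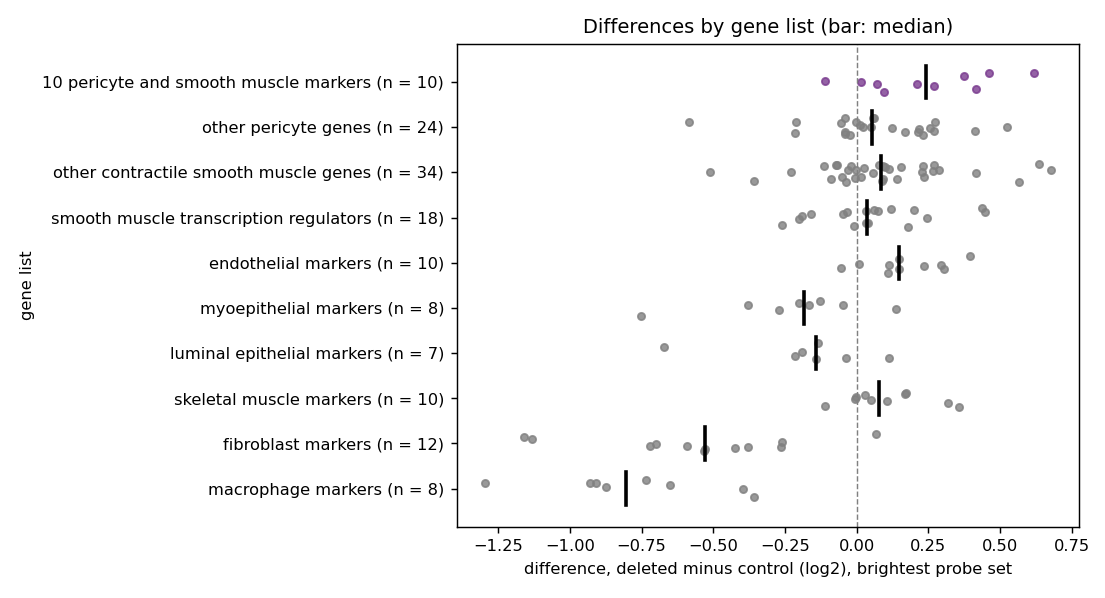
Difference between deleted and control samples (log2, horizontal axis) of each gene by its brightest probe set, for the 10 pericyte and smooth muscle markers (purple) and 9 other lists (grey), with black bars for medians. The median is 0.24 for the 10 markers, 0.05 and 0.08 for the other pericyte and contractile lists, -0.53 for fibroblast and -0.80 for macrophage markers.

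Genes with a profile like that of the 10 markers were sought among 11279 other genes above the median signal, by Pearson's r over the 6 arrays with the mean deviation of the markers. The 8 closest, at r from 0.93 to 0.97, were Dhh (desert hedgehog), Supt7l, Plb1, Cd69 (an activation marker of lymphocytes), Gpkow, Cbr3, Tmem273 and Tmem143. The 8 closest to Rgs5 alone, at r from 0.98 to 0.99, were Entpd1 (the ectonucleotidase CD39), Glul (glutamine synthetase), Nqo1, Eea1, Slc10a1, Zfas1, Il13ra1 and Plpp3. None of the 16 was in any list of mural or other cell genes used here. With 6 arrays that all genes share and this many genes compared, such values are a description of these arrays. Entpd1 read 11.49, 11.50 and 12.15 in deleted samples against 11.94, 11.72 and 11.28 in control samples, the same order of arrays at both ends as for Rgs5.

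**Figure D5:**
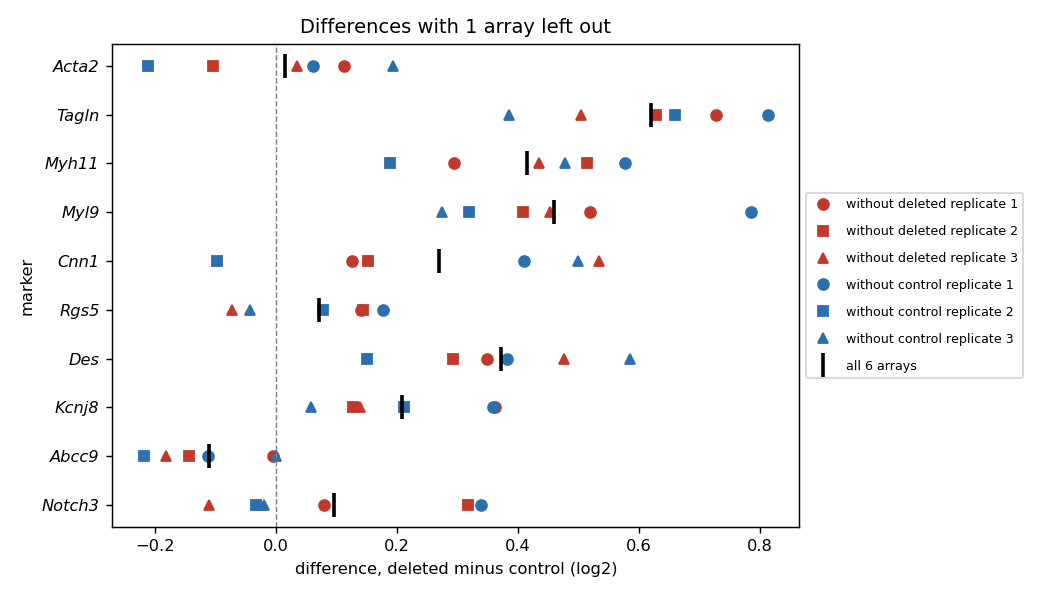
Difference between deleted and control samples (log2, horizontal axis) of the 10 genes with all 6 arrays (black bars) and with 1 array left out, deleted replicates in red and control replicates in blue. Tagln, Myh11, Myl9, Des and Kcnj8 stay above 0 throughout, and Acta2, Cnn1, Rgs5, Abcc9 and Notch3 cross 0.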

How the data were processed

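RNA of CD31-sorted mammary cells was read on 6 one-color Affymetrix Mouse Genome arrays. The log2 table that the authors deposited came from RMA (background subtraction, quantile normalization between arrays, 1 value per probe set), in a version not given in the sources. RMA narrows differences of dim probe sets. Array medians were 7.02 to 7.07, and no scaling was added.

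Of 45101 probe sets, 64 array controls were left out and none was filtered. The platform annotation named 1 gene for 34945 probe sets, several for 932 and none for 9160, and 34741 were matched by gene number to RefSeq for current symbols. Groups came from the genotype labels. For the test, lmFit and eBayes of limma (3.58.1, under R 4.3.3) were used, two-sided and without covariates, and p-values were adjusted by Benjamini-Hochberg over 45037 probe sets, and the steps were tested on simulated data. The study describes biological replicates, but nothing says how many animals a sample held, so p-values measure only the spread between these samples. The number of arrays limits the precision.

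The members and lists were chosen with earlier results of these data known. Named were all members, the 4 genes of each further list with the largest difference at most, all genes of the channel, Notch, actin and myoepithelial lists, 4 endothelial and 2 fibroblast markers, Ptprc and the 8 genes closest in profile. At most 0.218% of the values were identical between 2 arrays. The alternatives were other priors, array weights, scalings, a filter at the median signal, the number in the sample identifiers as a block, other ways to represent a gene and leaving out each array.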

Additional observations from a re-analysis of the deposited data

How the results depend on the processing

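No member passed an adjusted p under 0.05 in limma under any alternative, the smallest being 0.590, and 0 probe sets were called under each refit. With the study's thresholds of a difference over 1 and an unadjusted p under 0.05, limma's test here gave 58 probe sets. This is a count of probe sets and not the study's own list of genes. Tagln, Myh11, Myl9 and Des stayed above 0 throughout. Cnn1 could not be given with only probe sets above the median signal. Acta2 became -0.0022 with a further quantile normalization and -0.0045 as the mean of its probe sets. Abcc9 became 0.083 with array weights, 0.10 as the mean of its probe sets and 0.29 by the probe set with the largest SD. With array weights the median difference was 0.47 and 4 members had an unadjusted p under 0.05, as 6.96% of all genes did, control replicate 2 having by far the largest weight, 8.32.

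The identifiers of 2 deleted and 2 control samples share a number, but nothing says what it marks, and the deviations of such samples correlated at 0.17 and -0.02. As a fixed replicate block, the number leaves control replicate 3 and deleted replicate 3 without a partner. The differences of that fit thus rest only on the samples that share a number. In it 3 members (Myh11, Des and Cnn1, at 0.50, 0.69 and 0.76) had an unadjusted p under 0.05 in limma's test, as 6.29% of all genes did. Tagln differed by 0.27, and Rgs5, Kcnj8 and Notch3 became -0.19, -0.012 and -0.22. As a random replicate block the number reversed none.

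With 1 array left out, the differences lay between -0.21 and 0.19 for Acta2, -0.10 and 0.53 for Cnn1, -0.072 and 0.18 for Rgs5, -0.22 and 0.0008 for Abcc9 and -0.11 and 0.34 for Notch3. The median over the members lay between 0.11 and 0.37, and 0 to 2 members had an unadjusted p under 0.05, against 1.37% to 3.24% of all genes.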
